A study of Mus musculus with 32 samples.

Results

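AP-1 is a transcription factor complex built from pairs of basic leucine zipper (bZIP) proteins. Jun proteins pair with one another or with Fos proteins, ATF and BATF proteins join the same dimers, and the pairs bind the DNA sites TGACTCA (the TRE site) and TGACGTCA (the CRE site). Several of the genes are immediate early genes, whose short-lived transcripts appear soon after a stimulus through MAP kinases, and tissue dissociation and cell sorting are known to induce them. In blood-forming cells the family is known for roles in proliferation, myeloid differentiation and stress responses. The 8 AP-1 genes described here are Jun, Junb, Jund, Fos, Fosb, Fosl2, Atf3 and Batf, taken by gene symbol from the 24421 genes of the count table. All 8 were among the 14154 genes that passed the filter on low counts.

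RNA was sequenced from cells sorted from the bone marrow of female C57BL/6 mice, for which no transgene or treatment is given. Young mice were 10 weeks old and Aged mice were 20 months old. Marrow was pooled within an age and each fraction was sorted in duplicate, so the 32 libraries form 16 groups of 2, and p-values measure only the spread between these libraries, which may be technical. Hematopoietic stem cells (HSCs) and 4 multipotent progenitor fractions were sorted from the lineage-, Sca-1+, c-kit+ compartment with a single stain. HSCs were CD34-, CD150+, CD48- and Flt3-, and MPP1 differed from them in being CD34+. MPP2 was CD34+, CD150+, CD48+ and Flt3-, MPP3 was CD34+, CD150-, CD48+ and Flt3-, and MPP4 was CD34+, CD150-, CD48+ and Flt3+. Granulocyte-macrophage progenitors (GMPs; Sca-1-, c-kit+, FcgR+, CD34+) and megakaryocyte-erythroid progenitors (MEPs; Sca-1-, c-kit+, FcgR-, CD34-) shared another stain, and common lymphoid progenitors (CLPs; IL-7 receptor positive, Sca-1 low, c-kit low) had one of their own. A difference between these 3 sets of fractions and a difference between their stains and sorts cannot be told apart.

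The libraries held 11237384 to 17723245 counts, and a count of 3, used as the detection floor, equalled 0.186 to 0.281 CPM, which are counts of a gene per 1000000 counts of its TMM-scaled library. Il7r, the IL-7 receptor, lay between 157 and 201 CPM in CLPs, Klf1, an erythroid transcription factor, between 974 and 1119 CPM in MEPs, and Fcgr3, an Fc gamma receptor, between 473 and 497 CPM in GMPs. Some fractions also held markers of other lineages. Basophil and mast cell markers summed to 1818 to 1875 CPM in Young CLPs, and B cell markers to 182 to 194 CPM in Young MEPs. The 2 Aged CLP libraries differed from each other more than other duplicates did for Jun, Junb, Fos and Batf, and the results that rest on them are given below with and without each library. Jund differed between duplicates by up to 19.2-fold (Aged MPP1) and by more than 1.5-fold in 5 of the 16 groups. Because cells were measured in bulk, fewer cells expressing a gene and less RNA per cell cannot be told apart.

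The sequences upstream of Jun, Junb, Fos and Fosb are shown because these genes carry most of the differences described below and can respond to AP-1 and CREB proteins at their own promoters. Each line holds the 140 bases that end 1 base before the start of the gene in RefSeq (build GRCm38.p6), 5′ to 3′ on the gene's strand. Capitals mark a CRE core (TGACG), the variant TRE of Jun (TGACATCA) or a TATA box (TATAAA).
Jun (chr4:95052223-95052362, minus strand): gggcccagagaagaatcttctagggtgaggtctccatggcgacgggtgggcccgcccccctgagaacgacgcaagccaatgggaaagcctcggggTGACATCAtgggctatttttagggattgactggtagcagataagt
Junb (chr8:84978749-84978888, minus strand): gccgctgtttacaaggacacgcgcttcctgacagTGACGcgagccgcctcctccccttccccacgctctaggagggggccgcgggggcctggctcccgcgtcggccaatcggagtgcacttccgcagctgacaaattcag
Fos (chr12:85473750-85473889, plus strand): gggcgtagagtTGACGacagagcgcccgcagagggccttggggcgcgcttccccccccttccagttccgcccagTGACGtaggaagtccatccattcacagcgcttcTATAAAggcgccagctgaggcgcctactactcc
Fosb (chr7:19310046-19310185, minus strand): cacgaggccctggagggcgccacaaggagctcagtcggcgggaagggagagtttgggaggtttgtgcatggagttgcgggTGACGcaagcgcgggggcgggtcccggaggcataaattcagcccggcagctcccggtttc

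All 8 genes had an upstream sequence, and both strands of the 250 bases before each start were searched. The core TGACG lay upstream of 5 of them (Junb, Fos, Fosb, Atf3 and Batf), and of 17.8% of all 32851 promoters of that length. In Fos it occurred at positions -129 to -125 and -66 to -62 from the start, with TATAAA, present in 12.4% of promoters, at -33 to -28. TGACATCA occurred at -45 to -38 of Jun and in 2.93% of promoters. No member held TGACTCA (4.46% of promoters), the full TGACGTCA (1.55%), which contains the core, or a CArG box (1.47%) in this window. The RefSeq start was not always that of the annotation used for exon lengths. For Jund the window ended at chr8:70697738, upstream of the annotated start at 70698949. For Fosl2 and Atf3 it lay inside the annotated gene. In these genes a match or its absence may not describe the promoter in use. These matches describe letters and not binding.

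Expressed per kilobase of exon, which allows levels to be set between genes, Fos was the most abundant member, with a median of 1643 CPM per kb over the 16 group means. Jun (470), Junb (358) and Jund (297) followed, and Fosb (29.1), Batf (21.7), Atf3 (7.08) and Fosl2 (1.37) were lower. All levels from here on are CPM of the whole gene and are compared only within a gene.

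At both ages every member except Jund was lowest in MEPs, where Atf3 was at 0 counts, as it also was in Young GMPs. Pairs of fractions were compared within each age with edgeR's quasi-likelihood test, fitted to all genes, with Benjamini-Hochberg adjustment and a threshold of 0.01. Among Young libraries, 137 of the 224 comparisons of a member between 2 fractions passed (61.2%), against a background of 42.4% over all genes and pairs. Among Aged libraries 131 of 224 passed (58.5%), against 40.8%.

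**Figure D1:**
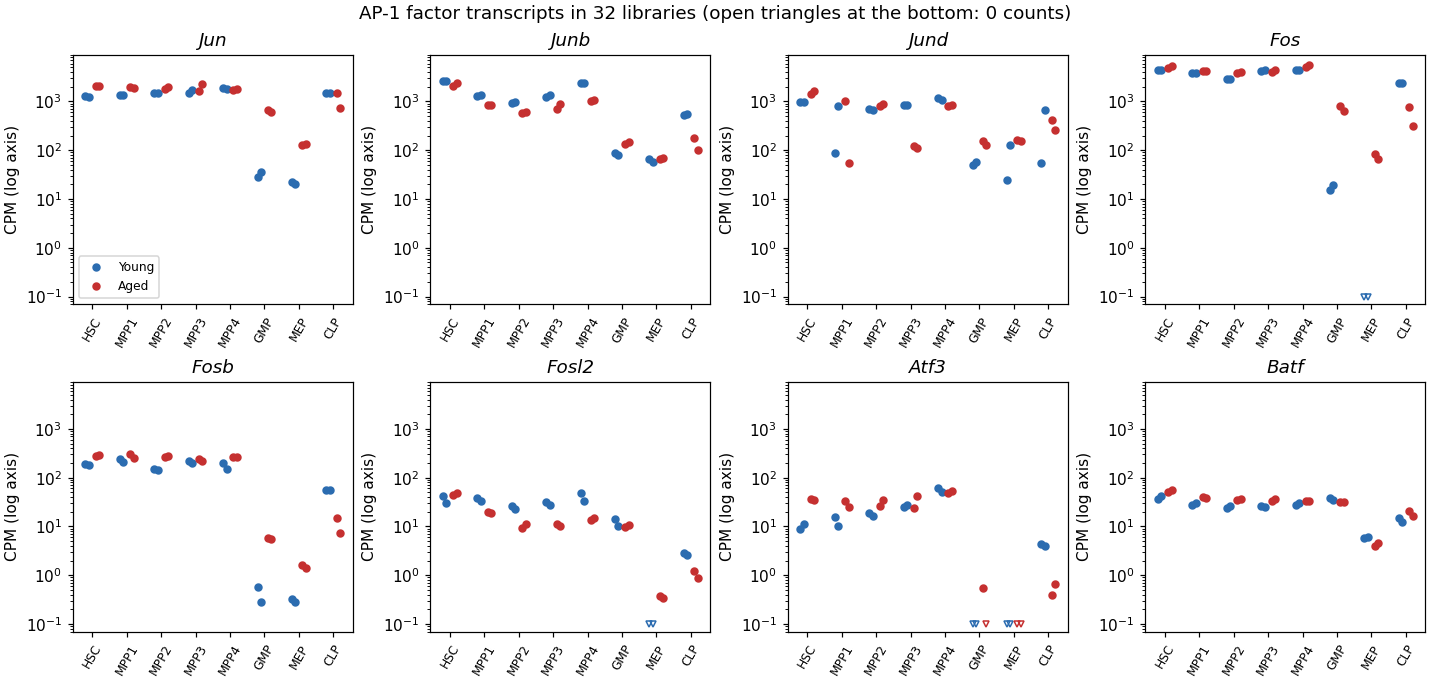
Levels of the 8 AP-1 genes in all 32 libraries, one panel per gene, in CPM on a log axis by fraction and age; each point is 1 library and open triangles stand for libraries with 0 counts. Fos and Jun were above 1000 CPM in every HSC and MPP library, and Fos was at 0 counts in both Young MEP libraries.

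Fos, the partner that needs Jun to bind DNA, ranged from 2912 to 4438 CPM in the 10 Young HSC and MPP libraries. It stood at 2344 and 2342 CPM in Young CLPs, at 15.3 and 19.1 CPM (215 and 277 counts) in Young GMPs, and at 0 counts in both Young MEP libraries. From MPP4 down through HSC, MPP3, MPP1, MPP2 and CLP no neighbouring pair differed at the threshold, whereas GMPs were below CLPs and MEPs below GMPs. The Young GMP level was below the Young HSC level by a log2 difference of -7.99 (SE 0.31, adjusted p = 3.87e-15, edgeR), in a comparison where 64.6% of all genes passed. Of 3456 genes with a median of at least 1000 counts over all libraries, 4, Fos among them, were listed at 0 in both Young MEP libraries, against 0 to 3 genes in the other groups.

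Jun, the subunit that can bind DNA as a homodimer or with Fos, followed a like order. Its 10 Young HSC and MPP libraries lay between 1219.9 and 1899 CPM and the Young CLP libraries at 1504 and 1498 CPM, with no difference between neighbours in the order. Young GMPs held 28.8 and 35.0 CPM and Young MEPs 22.2 and 20.7 CPM. Both fractions stood far below CLPs and did not differ from each other at the threshold, and the GMP to HSC log2 difference was -5.31 (SE 0.23, adjusted p = 6.45e-15, edgeR).

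Junb, a Jun protein known as a brake on stem and progenitor cell proliferation, had a graded order in Young mice. HSCs (2588 and 2675 CPM) and MPP4 (2428 and 2379 CPM) stood above MPP1, MPP3 and MPP2 (948 to 1331 CPM), these above CLPs (534 and 548 CPM), and CLPs above GMPs, at 89.0 and 79.8 CPM, which did not differ from MEPs at the threshold (65.8 and 56.6 CPM). In Aged mice HSCs (2041 and 2367 CPM) stood alone at the top. The Aged MPP4 to HSC log2 difference was -1.09 (adjusted p = 4.4e-06, edgeR; 45.5% of all genes passed), whereas the Young one was -0.13 (adjusted p = 0.526; 34.6% of all genes passed).

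Atf3, a stress-induced member of the ATF group, varied within the HSC and MPP fractions. Young MPP4 (62.7 and 50.8 CPM) was above Young MPP3 (25.4 and 27.0 CPM), and above Young HSCs (9.07 and 11.3 CPM) by a log2 difference of 2.47 (SE 0.28, adjusted p = 5.8e-07, edgeR), a 5.56-fold difference. In Aged mice the MPP4 to HSC log2 difference was 0.49 (adjusted p = 0.107). Atf3 was at 0 counts in all 4 MEP libraries and in 3 of 4 GMP libraries, the other holding 6 counts.

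Fosb, a Fos protein with a strong transactivation domain, was even across Young HSCs and MPPs (143 to 236 CPM), lower in CLPs (57.0 and 56.2 CPM) and near the floor in GMPs (8 and 4 counts) and MEPs (5 and 4 counts). Fosl2, the Fos-related protein Fra-2, had its second tier in GMPs (14.4 and 10.2 CPM) and not in CLPs (2.79 and 2.59 CPM). Batf, which pairs with Jun proteins and is known from lymphocytes, stood at 38.9 and 35.3 CPM in Young GMPs and at 37.1 and 41.8 CPM in Young HSCs, with a log2 difference of -0.09 (adjusted p = 0.491, edgeR). Its GMP and HSC libraries overlapped in Young mice, unlike those of Jun, Junb and the Fos genes, and it was lowest in MEPs (3.94 to 6.17 CPM over both ages).

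Between the ages, 27 of the 64 comparisons of a member within a fraction passed the threshold (42.2%), against 12.6% over all genes and fractions. Aged levels were higher in 14 (background 7.01%) and lower in 13 (background 5.57%). The direction went with the fraction: members rose in GMPs and MEPs, fell in CLPs, and went both ways in the MPP fractions.

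**Figure D2:**
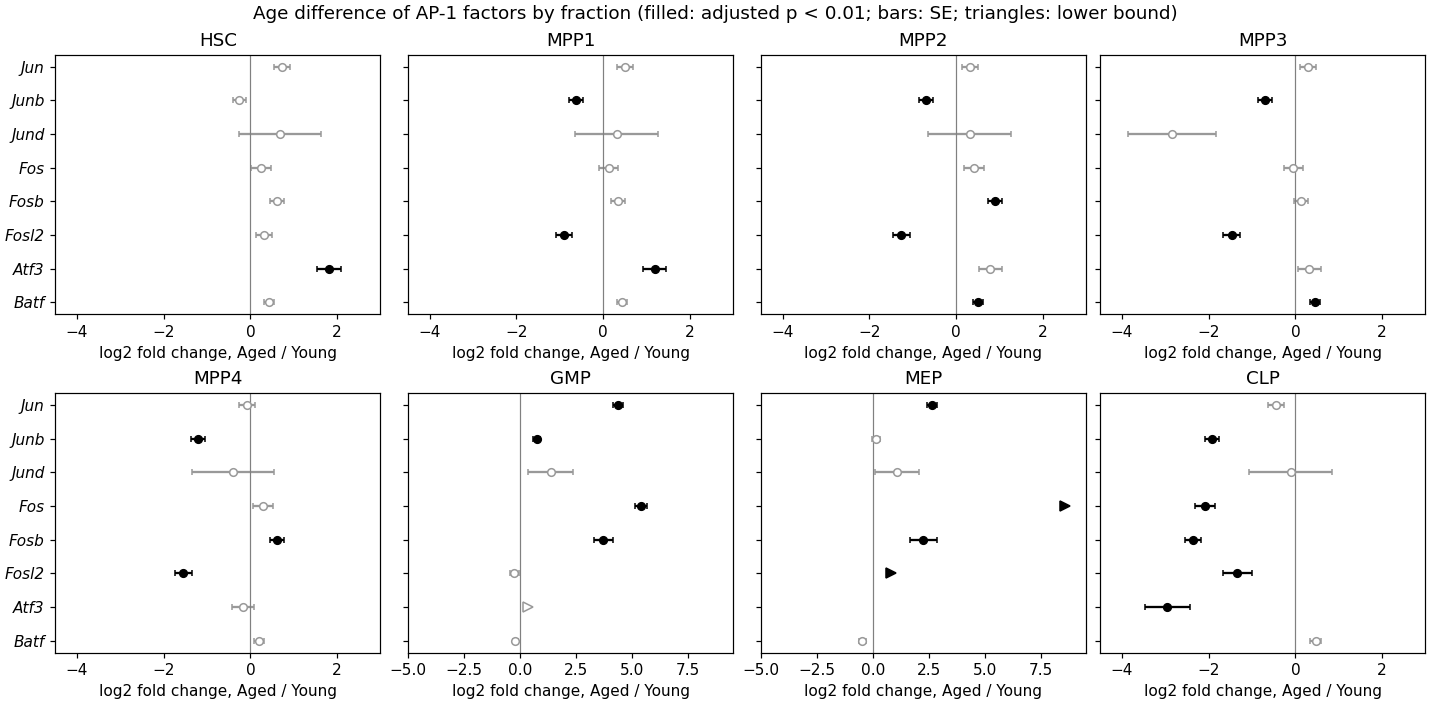
Log2 ratio of Aged to Young level of each AP-1 gene, one panel per fraction; bars are SE, filled points passed adjusted p = 0.01 and triangles are lower bounds where the Young libraries were at 0 counts. The GMP and MEP panels have a wider axis; Atf3 in MEPs, at 0 counts in all libraries, is not drawn, and 5 of the 8 genes in CLPs lie to the left of 0 with filled points.

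In GMPs 4 of the 8 genes rose with age and none fell, where 18.9% of all genes passed and 9.93% were higher. Jun went from 28.8 and 35.0 CPM in Young to 680 and 618 CPM in Aged GMPs, 20.3-fold (log2 4.35, SE 0.22, adjusted p = 2.14e-11, edgeR). Fos went from 15.3 and 19.1 CPM to 796 and 648 CPM, 41.9-fold (log2 5.39, SE 0.28, adjusted p = 8.94e-11). The Young and Aged libraries lay far apart for both genes. Fosb rose from 8 and 4 counts to 65 and 61 counts, 13.1-fold (log2 3.71, SE 0.43, adjusted p = 2.13e-06), and Junb from 89.0 and 79.8 CPM to 136 and 144 CPM (log2 0.73, SE 0.16, adjusted p = 0.00156). Of the 4 rises, that of Junb was the smallest, and it was lost without Young GMP replicate 2 (adjusted p = 0.026, edgeR) or Aged GMP replicate 2 (0.0142). Fosl2 (14.4 and 10.2 against 9.75 and 10.7 CPM) overlapped between the ages, Batf stood at 38.9 and 35.3 against 32.4 and 31.1 CPM (adjusted p = 0.159), and Jund at 50.2 and 57.9 against 154 and 126 CPM, which did not overlap but did not pass in the fit of all libraries. With the GMP libraries alone Jund passed (log2 1.36, adjusted p = 0.00183, edgeR).

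In MEPs 4 of the 8 genes also rose and none fell, where 20.8% of all genes passed and 9.08% were higher. Fos, at 0 counts in both Young libraries, reached 910 and 782 counts (85.3 and 67.3 CPM) in the Aged ones, at least 374-fold higher against a floor of 3 counts per library (adjusted p = 1.57e-11, edgeR). This bound rests on the listed zeros, and whether they are true zeros was not tested. Jun went from 22.2 and 20.7 CPM to 130 and 135 CPM, 6.17-fold (log2 2.63, SE 0.21, adjusted p = 4.99e-09). The other rises rested on few counts. Fosb went from 5 and 4 to 17 and 16 counts (log2 2.25, SE 0.61, adjusted p = 0.00717), and Fosl2 from 0 in both libraries to 4 counts in each, at least 1.76-fold higher (adjusted p = 0.00518). Both lost the threshold when any 1 of the 4 MEP libraries was left out (adjusted p from 0.0302 to 0.0475 for Fosb and from 0.0217 to 0.0448 for Fosl2), and Fosb also in a fit of the MEP libraries alone (0.0468). Junb, at 65.8 and 56.6 CPM in Young and 64.7 and 69.1 CPM in Aged MEPs, overlapped between the ages, and Batf stood at 5.70 and 6.17 against 3.94 and 4.56 CPM (adjusted p = 0.0308).

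Marker genes of other cell types also moved in these fractions. In GMPs the summed level of 8 erythroid markers was 776 to 849 CPM in Young and 31.4 to 84.3 CPM in Aged libraries (5 fell), and that of 8 neutrophil markers 294 to 296 against 103 to 136 CPM (4 fell). The T and NK cell list had a higher sum in Aged GMPs (690 to 736 against 984 to 1057 CPM), of which Nkg7 made up nearly all (736 and 686 against 984 and 1056 CPM). In MEPs the summed B cell markers were 182 to 194 CPM in Young and 0.430 to 1.22 CPM in Aged libraries (6 of 8 fell), with Cd79a, a B cell receptor subunit, at 53.5 and 57.5 against 0 and 0 CPM. The summed monocyte markers were 14.2 to 17.9 against 2.41 to 2.62 CPM (6 of 8 fell). By summed level none of the 7 marker lists was higher in both Aged MEP libraries than in both Young ones. By gene, 1 neutrophil marker was called higher and 0 lower, and 1 T and NK cell marker higher and 1 lower. The median log2 age difference of the 8 neutrophil markers was 1.01, with genes at 0 counts set at their bound. The erythroid, megakaryocyte and basophil lists each had 1 gene called lower and 0 higher. Of 8 genes of antigens used in the sorts, 5 were called lower and 0 higher in Aged MEPs. Their median log2 difference was -1.73, and 20.8% of all genes passed in MEPs. The part of these differences in the AP-1 results was not tested.

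In CLPs 5 of the 8 genes fell with age and none rose, where 10.4% of all genes passed and 4.73% were lower. Fos went from 2344 and 2342 CPM in Young to 783 and 315 CPM in Aged CLPs (log2 -2.09, SE 0.23, adjusted p = 3.02e-06, edgeR). Junb went from 534 and 548 CPM to 182 and 102 CPM (log2 -1.93, SE 0.16, adjusted p = 3.88e-08), and Fosb from 57.0 and 56.2 CPM to 14.8 and 7.21 CPM (log2 -2.36, SE 0.19, adjusted p = 2.69e-08). For all 3 genes both Aged libraries lay below both Young ones, although the Aged libraries differed from each other by up to 2.49-fold. Without Aged CLP replicate 1 the log2 differences were -2.89 for Fos and -2.41 for Junb, and without replicate 2 they were -1.59 and -1.59. Atf3 fell from 53 and 49 counts to 5 and 9 counts (log2 -2.95, SE 0.51, adjusted p = 0.000517), and Fosl2 from 34 and 32 counts to 16 and 12 counts (log2 -1.34, SE 0.34, adjusted p = 0.00782). The call for Atf3 was lost without Aged CLP replicate 1 (adjusted p = 0.0168), and that for Fosl2 when any 1 of the 4 libraries was left out (0.0319 to 0.0704). Fitted on their own 4 CLP libraries, which then supply the spread, none of the 5 passed: the adjusted p was 0.0338 for Fos, 0.0192 for Junb, 0.0167 for Fosb, 0.0187 for Atf3 and 0.0763 for Fosl2.

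Jun in CLPs depended on a single library. It stood at 1504 and 1498 CPM in Young and at 1461 and 737 CPM in Aged CLPs, which gave a log2 difference of -0.45 (adjusted p = 0.101, edgeR). Without Aged CLP replicate 1 the difference was -1.02 (adjusted p = 6.55e-05), and without replicate 2 it was -0.05. Batf was at 14.8 and 12.2 against 21.1 and 16.1 CPM, the only one of the 8 with both Aged libraries above both Young ones, and did not pass (adjusted p = 0.013). It passed without Aged CLP replicate 2 (log2 0.63, adjusted p = 0.00181, edgeR).

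The CLP comparison also differed in the markers of other cells. The summed level of 8 basophil and mast cell markers was 1818 to 1875 CPM in Young and 20.2 to 25.2 CPM in Aged CLPs, and 7 of the 8 fell. Prss34, a basophil protease, was at 1283 and 1308 CPM in Young and at 0 in both Aged libraries, and Mcpt8, another, at 279 and 292 against 0.772 and 2.30 CPM. Summed B cell markers were 2676 to 2744 against 1256 to 1261 CPM (7 of 8 fell) and neutrophil markers 584 to 595 against 89.3 to 163 CPM (6 of 8 fell). Megakaryocyte markers went the other way, at 38.4 to 40.0 against 131 to 216 CPM (6 of 7 tested rose). Il7r (157 and 159 against 201 and 190 CPM) and Flt3 (616 and 605 against 675 and 742 CPM) marked the fraction at both ages. The part of these markers in the lower AP-1 levels was not tested.

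In HSCs 1 of the 8 genes passed, upward, where 5.4% of all genes passed and 3.74% were higher. Atf3 rose from 9.07 and 11.3 CPM in Young to 36.1 and 35.3 CPM in Aged HSCs, 3.5-fold (log2 1.81, SE 0.27, adjusted p = 0.000241, edgeR). The call was lost without Young HSC replicate 1 (adjusted p = 0.0101). Jun stood at 1311 and 1219.9 against 2059 and 2123 CPM (log2 0.72, SE 0.19, adjusted p = 0.0139), Fosb at 193 and 182 against 278 and 296 CPM (log2 0.61, adjusted p = 0.0147) and Batf at 37.1 and 41.8 against 51.7 and 54.6 CPM (log2 0.43, adjusted p = 0.0164). In these 3 genes both Aged libraries lay above both Young ones, but the difference did not pass. With DESeq2 as the test all 3 passed (adjusted p = 0.00105, 0.00134 and 0.000868). Both Aged libraries also lay above both Young ones for Fos, Fosl2 and Jund. Jund stood at 959 and 977 against 1442 and 1664 CPM (log2 0.68, SE 0.95, adjusted p = 0.748, edgeR). Fos was at 4414 and 4345 against 4917 and 5419.5 CPM (adjusted p = 0.586), and Junb at 2588 and 2675 against 2041 and 2367 CPM (adjusted p = 0.345). Summed neutrophil markers were 59.6 to 66.0 CPM in Young and 280 to 309 CPM in Aged HSCs (5 of 8 rose). Of the basophil and mast cell markers 4 of 8 rose, with sums of 521 to 526 against 503 to 597 CPM, and the T and NK cell sum was 31.5 to 33.8 against 81.8 to 91.7 CPM (2 of 7 tested rose). The part of these markers in the Atf3 difference was not tested.

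In the MPP fractions Junb and Fosl2 fell while Fos and Jun did not pass the test in any, although in fits of 1 fraction alone both passed, upward, in MPP1 and MPP2. Of all genes, 6.8% passed in MPP1 (4.71% higher and 2.09% lower), where 1 member rose and 2 fell. MPP2, with 2 rises and 2 falls among the members, had a background of 7.81% (4.49% higher and 3.31% lower). MPP3 and MPP4 each held 1 rise and 2 falls, against 13.9% (8.14% higher and 5.79% lower) and 16.6% (10.3% higher and 6.27% lower) of all genes. Junb fell most in MPP4, from 2428 and 2379 CPM in Young to 1013 and 1057 CPM in Aged (log2 -1.22, SE 0.16, adjusted p = 7.53e-06, edgeR). The MPP3 libraries went from 1234 and 1329 to 688 and 890 CPM (log2 -0.70, adjusted p = 0.00236). MPP2 went from 948 and 974 to 573 and 618 CPM (log2 -0.69, adjusted p = 0.00442), and MPP1 from 1317 and 1331 to 863 and 851 CPM (log2 -0.63, adjusted p = 0.00928). In each of the 4 fractions both Aged libraries lay below both Young ones. The MPP1 and MPP2 calls were lost when any 1 of their 4 libraries was left out (adjusted p from 0.0549 to 0.0811 and from 0.0269 to 0.0631, edgeR). The MPP3 call was lost without any library but Aged replicate 2 (0.0119 to 0.0653) and with MPP3 libraries alone (0.0135).

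Fosl2 fell in the same 4 fractions. It went from 48.6 and 33.7 CPM in Young to 13.6 and 14.7 CPM in Aged MPP4 (log2 -1.55, SE 0.19, adjusted p = 4.81e-06, edgeR) and from 31.5 and 26.9 to 11.1 and 9.99 CPM in MPP3 (log2 -1.47, adjusted p = 1.67e-05). The log2 differences in MPP2 (-1.26, adjusted p = 0.000194) and MPP1 (-0.90, adjusted p = 0.0022) were smaller. The calls in MPP2, MPP3 and MPP4 held with any 1 library left out, and that in MPP1 was lost without any library but Young replicate 2 (0.023 to 0.0435). In HSCs Fosl2 stood at 42.7 and 30.4 against 43.4 and 47.4 CPM (log2 0.32, adjusted p = 0.307), so that Aged HSCs came to stand above the Aged MPP fractions.

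Fosb, Batf and Atf3 rose in some of the same fractions where Junb and Fosl2 fell. Fosb went from 150 and 143 to 266 and 282 CPM in MPP2 (log2 0.91, SE 0.16, adjusted p = 0.000609, edgeR) and from 202 and 150 to 269 and 270 CPM in MPP4 (log2 0.62, SE 0.16, adjusted p = 0.00624). Batf went from 24.2 and 26.5 to 34.9 and 37.0 CPM in MPP2 (log2 0.51, SE 0.12, adjusted p = 0.00513) and from 25.8 and 24.9 to 32.6 and 37.1 CPM in MPP3 (log2 0.46, SE 0.12, adjusted p = 0.00629). These are small differences between libraries that did not overlap. Fosb in MPP2 was lost without either Young library (adjusted p = 0.01 and 0.0134, edgeR) and in MPP4 without any library but Young replicate 1 (0.0323 to 0.113). Batf in MPP2 was lost without any 1 of the 4 libraries (0.0168 to 0.0843) and in MPP3 without any but Aged replicate 1 (0.0203 to 0.0555). Atf3 rose in MPP1, from 15.5 and 10.4 to 33.6 and 25.5 CPM (log2 1.19, SE 0.27, adjusted p = 0.00584), which was lost without any 1 of the 4 libraries (0.0104 to 0.104), and in MPP4 it overlapped between the ages (62.7 and 50.8 against 47.6 and 52.8 CPM). Fos in MPP4 stood at 4425 and 4339 against 5207 and 5523 CPM (log2 0.29, adjusted p = 0.379), and Jun at 1899 and 1779 against 1703 and 1786 CPM.

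Markers of other cells were lower in several Aged MPP fractions. In MPP3 the summed neutrophil markers were 1097 to 1099 CPM in Young and 183 to 245 CPM in Aged libraries (6 of 8 fell), and the erythroid sum was 1079 to 1111 against 212 to 231 CPM (5 fell). Monocyte (5 of 8) and megakaryocyte markers (5 of 7 tested) fell there too, at 228 to 247 against 68.5 to 71.1 CPM and 575 to 632 against 305 to 341 CPM, as did 3 B cell markers. In MPP2 the neutrophil sum was 665 to 708 against 257 to 265 CPM (5 fell) and the erythroid sum 942 to 990 against 221 to 235 CPM (4 fell), with 4 falls and 1 rise among basophil and mast cell markers. MPP4 had no called neutrophil or erythroid marker, and 3 falls each among monocyte, megakaryocyte and basophil markers, and MPP1 had no called neutrophil, erythroid or megakaryocyte marker. Their part in the differences of Junb, Fosl2, Fosb, Batf and Atf3 was not tested.

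Jund, a Jun protein usually expressed more steadily than the others, passed the age test in no fraction when all 32 libraries were fitted together. Its duplicates lay at 89.1 and 796 CPM in Young MPP1, 1042 and 54.3 CPM in Aged MPP1, 55.7 and 679 CPM in Young CLPs and 24.3 and 127 CPM in Young MEPs. With such gaps no age difference could be read for Jund in these fractions. In MPP3 the duplicates were close to each other at both ages, 833 and 830 CPM in Young and 120 and 111 CPM in Aged, and the log2 difference was -2.85 with an SE of 1.02, which rests on the spread over all 16 groups (adjusted p = 0.047, edgeR). With the libraries of 1 fraction alone Jund passed in MPP3 (adjusted p = 0.000349), GMPs, and MPP2 (log2 0.32, adjusted p = 0.00118), where it stood at 697 and 666 against 807 and 889 CPM. Genes with at least 1000 counts that differed by more than 8-fold between duplicates numbered 0 to 5 in a group. A predicted gene, Gm11175, overlaps 919 bases of Jund on the opposite strand, and whether the counting used strand is not given in the sources used here.

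**Figure D3:**
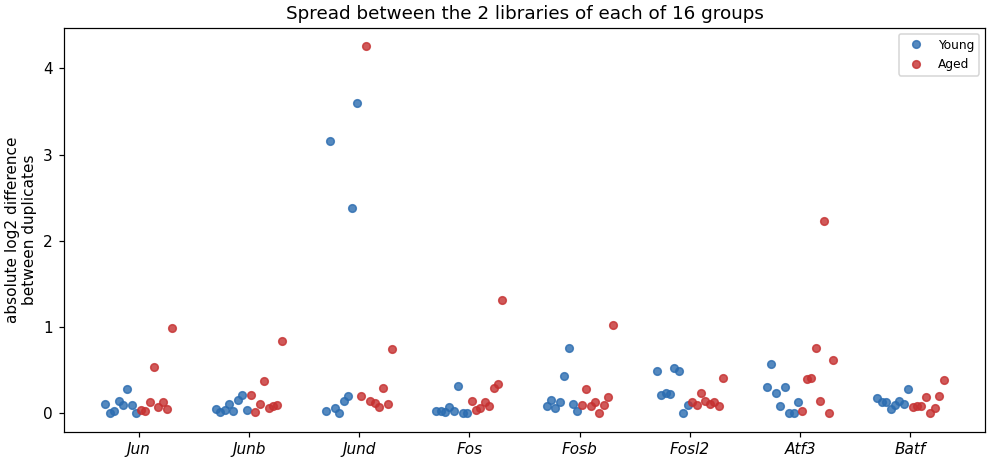
Absolute log2 difference between the 2 libraries of each of the 16 groups for each AP-1 gene, coloured by age. The points of Jund reach the highest values, and the largest gaps of Jun, Junb, Fos and Batf belong to Aged CLPs.

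Apart from Jund, the median ratio between duplicates was 1.05 to 1.24 over the groups in which a gene was detected. It was 1.05 for Fos, 1.06 for Junb and 1.07 for Jun, and 1.24 for Atf3. The counts of Atf3 were 112 to 1013 in the HSC and MPP libraries and 0 to 53 in the others. In Aged CLPs the ratios were 1.98 for Jun, 1.79 for Junb and 2.49 for Fos. Antisense or neighbouring transcripts also overlap Jun (Junos, 689 bases) and Junb (Prdx2, 351 bases), and their reads cannot be told apart without strand.

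Whether the age differences themselves differed between fractions was tested with an interaction term. Over the 8 fractions jointly, 7 of the 8 genes passed, all but Jund (adjusted p = 0.252), against 34.9% of all genes. The adjusted p ran from 2.36e-11 for Fos and 5.09e-10 for Jun to 0.000717 for Batf. HSCs differed from the mean of the 4 MPP fractions in 1 gene, Fosl2, whose log2 age difference was higher in HSCs by 1.61 (SE 0.20, adjusted p = 5.59e-05, edgeR), where 3.01% of all genes passed and 1.91% were higher. The same contrast was 1.27 for Atf3 (adjusted p = 0.0141) and 0.55 for Junb (adjusted p = 0.053), and with DESeq2 both passed (adjusted p = 9.05e-05 and 0.0074). CLPs differed from the MPP mean in 4 genes, all lower, where 22.6% of all genes passed and 12.3% were lower. The contrast was -3.48 for Atf3 (SE 0.53, adjusted p = 4.84e-05), -2.86 for Fosb (SE 0.21, adjusted p = 4.66e-09), -2.29 for Fos (SE 0.26, adjusted p = 1.08e-06) and -1.13 for Junb (SE 0.18, adjusted p = 4.12e-05). For Jun it was -0.71 (adjusted p = 0.0113), and -1.31 without Aged CLP replicate 1 (adjusted p = 3.86e-06).

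The median log2 age difference of the 8 genes was 0.52 in HSCs, lay at 0.32 for MPP1, 0.37 for MPP2, 0.04 for MPP3 and -0.13 for MPP4, and came to -1.63 among CLP libraries. With genes at 0 counts in Young set at their lower bound the GMP median was 1.05 and the MEP median, over the 7 genes with a value, 1.08. The medians over all genes tested lay between -0.04 and 0.02. Jun was called higher in 2 fractions and lower in none, Fos in 2 and 1, Fosb in 4 and 1, Atf3 in 2 and 1, and Batf in 2 and none, whereas Junb and Fosl2 were each called higher in 1 and lower in 5.

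Because sorting and handling can induce AP-1 genes, 2 further lists were measured in the same libraries: 23 other immediate early and handling genes, and 12 heat shock genes. In GMPs 11 of the 23 immediate early genes rose with age and 1 fell, and the mean log2 CPM of the list was 1.42 higher in Aged than in Young. In CLPs none rose and 15 fell, with a mean difference of -1.29. These are the 2 fractions in which the list moved most, in the same directions as the AP-1 genes. In MEPs 1 of 23 rose and 3 fell, with a mean difference of -0.0010, while Fos and Jun rose, and the mean of the heat shock list was 0.81 higher there. The heat shock mean was higher in Aged than in Young libraries in all 8 fractions, by 0.095 in CLPs and by 0.56 to 0.95 in the others. The median log2 difference of its genes was -0.18 in GMPs (2 rose and 5 fell) and 0.061 in MEPs (4 rose and 2 fell). The HSP70 genes Hspa1a and Hspa1b rose by log2 6.48 and 6.14 in GMPs and by 4.87 and 4.44 in MEPs, so the means rest largely on them there. In MPP4 1 of the 23 rose and 13 fell, with a mean difference of -0.62, a fraction where Junb and Fosl2 fell and Fosb rose. Over all genes 18.9% passed in GMPs, 10.4% in CLPs, 20.8% in MEPs and 16.6% in MPP4. The part of handling in the AP-1 results was not tested.

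**Figure D4:**
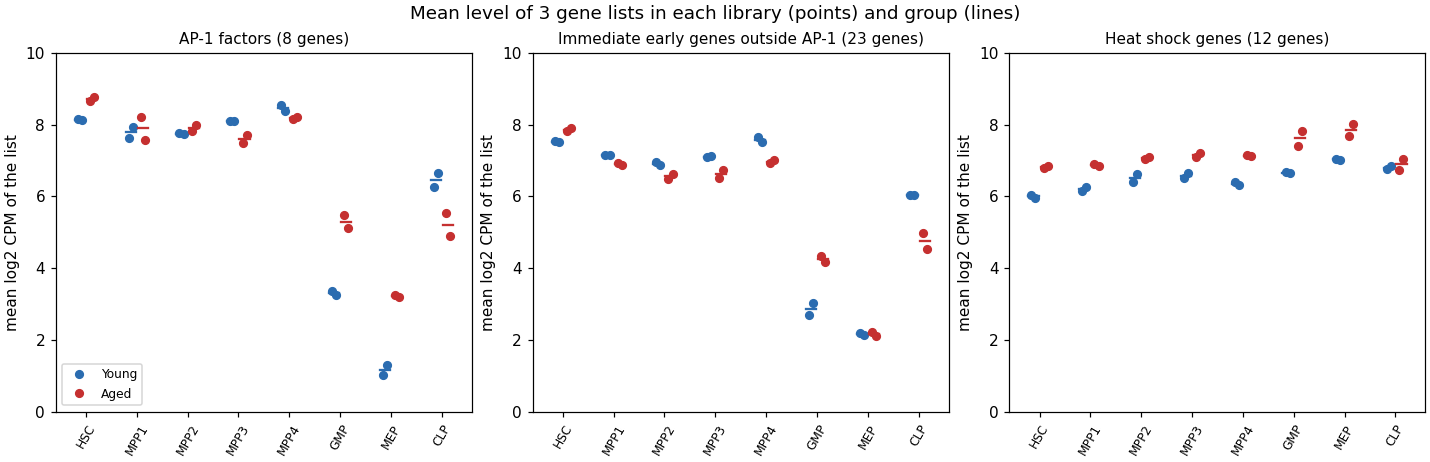
Mean log2 CPM of the 8 AP-1 genes, 23 other immediate early and handling genes and 12 heat shock genes in each library, by fraction and age. The AP-1 and immediate early lists were lower in Aged than in Young CLPs and higher in Aged than in Young GMPs.

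The named immediate early genes did not all move alike. Ier2, an early response gene, rose in GMPs (173 and 148 against 259 and 241 CPM, log2 0.64) and fell in MPP4 (log2 -0.91) and CLPs (338 and 346 against 126 and 96.2 CPM, log2 -1.62). Nr4a1, a nuclear receptor induced by signalling, fell in 6 fractions, among them MPP4 (log2 -1.55) and CLPs (log2 -2.52), and Mcl1, an anti-apoptotic gene, fell in 7. Klf2, a zinc finger factor, rose in 5 fractions, among them MPP2 (130 and 139 against 556 and 596 CPM) and GMPs (log2 2.60), and fell in CLPs (log2 -1.84). Of the 12 heat shock genes, 4 to 7 rose in HSCs, each MPP fraction and MEPs, with 1 fall in MPP4 and 2 in MEPs, while GMPs had 2 rises and 5 falls and CLPs 1 rise and 2 falls. Among all genes, 5.4% passed in HSCs, 6.8% to 16.6% in the MPP fractions, 18.9% in GMPs, 20.8% in MEPs and 10.4% in CLPs. Hspa1a, an inducible HSP70 gene, rose in 7 fractions, all but CLPs, by log2 3.32 in HSCs, 6.48 in GMPs and 4.87 in MEPs. Its near-identical copy Hspa1b, with which reads may be shared, rose in 7 as well.

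Across the 16 group means the levels of the members went with the mean of the 23 immediate early genes. Pearson r was 0.97 for Junb and Fosb, 0.95 for Atf3, 0.90 for Jun and 0.88 for Fos. It was 0.82 for Fosl2, 0.79 for Jund and 0.71 for Batf. Spearman rho was 0.98 for Junb, 0.70 for Fosb, 0.77 for Atf3, 0.65 for Jun and 0.88 for Fos. For Fosl2, Jund and Batf rho was 0.93, 0.81 and 0.49. These points share fractions, stains and libraries, and the values are a description. Within groups, the difference between duplicates went with that of the 23 genes for Jun (r = 0.87 over 16 groups, 0.78 over 15 without Aged CLPs) and Fos (0.87 and 0.85). For Junb (0.62 and 0.15) and Fosb (0.35 and -0.25) it rested on Aged CLPs. The other genes had lower r over 16 groups: Jund (0.13 and 0.047), Fosl2 (0.15 and -0.052), Atf3 (0.21 and 0.55) and Batf (0.31 and -0.18).

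The genes around AP-1 were described by 3 more lists. Of 18 other bZIP partner genes 17 were tested: 5 GMP differences were rises and 1 a fall, the MEP comparison held 4 rises and 3 falls, HSCs held neither, and falls alone were found in MPP1 (1), MPP2 (1), MPP3 (3), MPP4 (4) and CLPs (2). Mafk, a small Maf protein, rose in 2 fractions and fell in 4, and Atf4, the factor of the integrated stress response, rose in 2, among them GMPs (91.1 and 90.9 against 154 and 176 CPM), and fell in 1. Of 33 genes upstream of AP-1 (kinases, phosphatases and transcription factors such as Srf and Elk1), 4 rose and 6 fell in MPP4. In GMPs 5 of them rose and 2 fell, in MEPs 5 rose and 8 fell, and in CLPs 1 rose and 5 fell. HSCs held 1 rise and 4 falls, MPP1 and MPP2 each 1 and 5, and MPP3 1 and 7. Of all genes, 5.4% passed in HSCs, 6.8% to 16.6% in the MPP fractions, 18.9% in GMPs, 20.8% in MEPs and 10.4% in CLPs. Dusp2, a MAP kinase phosphatase, fell in 7 fractions, by log2 -1.25 in HSCs and -1.52 in CLPs, and rose in GMPs by log2 0.75. Dusp5, another, fell in 7 (log2 -1.41 in MPP4), and Rps6ka3, a kinase downstream of ERK, rose in 5 (log2 1.25 in HSCs).

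Of 20 genes known from textbooks as AP-1 targets 18 were tested, and rises and falls stood side by side in every fraction: HSCs had 4 rises and 3 falls, MPP4 2 and 6, GMPs 1 and 4, MEPs 1 and 5, and CLPs 4 and 5. Hmox1, heme oxygenase, fell in all 8 fractions, by log2 -1.55 in HSCs and -3.00 in MPP4. Mt1, a metallothionein, rose in 6 (log2 3.28 in HSCs). Cd44, an adhesion receptor, fell in 6 and rose in 1. The median log2 age difference of the list was 0.22 in GMPs over the 17 genes with a value, with genes at 0 counts in a group set at their bound, and -0.31 in MEPs over 14. Over 16 genes each, it was 0.29 in HSCs, -0.11 in MPP4 and -0.42 in CLPs. The same medians over all genes tested were 0.016 in GMPs, -0.0041 in MEPs, 0.028 in HSCs, -0.036 in MPP4 and -0.0061 in CLPs.

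Over the 32 libraries the members most alike were Fosb and Atf3 (Pearson r = 0.96 of log2 CPM) and Jun and Fos (0.95), and the least alike were Jund and Batf (0.40). Among all other genes tested, those closest to Jun were Nlrc5 (r = 0.954), Fos and Slc15a2 (0.952), and those closest to Fos were Mark4 (0.965), Jun and Dusp18 (0.952). Junb stood closest to Ier2 (0.976), Plk2 (0.971) and Ptgs2 (0.970). Ier2 belongs to the immediate early list used here and Ptgs2 to the list of AP-1 targets. Fosb stood closest to Dusp1 (0.978), an immediate early phosphatase, Fosl2 to Slc9a3r2 (0.972), Atf3 to Fosb (0.961) and Batf to Pgm2 (0.968). No gene came near Jund to that degree, the closest being Wdtc1 (0.763). Spearman rho was 0.66 for Jun with Nlrc5, 0.84 for Fos with Mark4, 0.98 for Junb with Ier2 and 0.93 for Fosb with Dusp1. It was 0.96 for Fosl2 with Slc9a3r2, 0.84 for Atf3 with Fosb, 0.84 for Batf with Pgm2 and 0.71 for Jund with Wdtc1. The libraries share fractions and the likeness is a description.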

How the data were processed

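The authors sequenced cDNA made with the SMARTer Ultra Low Input kit, and the submitters' processing notes name TopHat2 2.0.13, Bowtie2 2.1.0 and StringTie with build mm10. They deposited raw counts per gene for all 32 libraries, the only values used. Whether strand was used in counting is not given in the sources used here. The 32 columns of normalized values and 8 tables of the authors' own comparisons (fold changes and p-values) were not used. Of the rows of counts, 27 bore dates in place of gene symbols and held 0.188% of counts.

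Libraries held 11237384 to 17723245 counts (median 13489609.5). After filterByExpr, 14154 genes were fitted in edgeR 4.0.16 (R 4.3.3) with its quasi-likelihood test, all 32 libraries in 1 model of 16 groups (16 residual degrees of freedom) and TMM factors of 0.807 to 1.11. Benjamini-Hochberg adjustment ran over all genes tested, and the threshold was 0.01. Correlations used log2 CPM with a prior count of 2. Scripts were tested on simulated data. Levels of 0 counts were replaced by a floor of 3 counts per library for fold bounds, which cover counting error only. DESeq2 1.42.0 was an alternative. All 8 AP-1 genes are named, with up to 4 genes of each other list called in the most fractions (ties by mean absolute log2 difference) and the most alike genes by Pearson r. Further list and marker genes named beside a result were chosen after their values were seen. The members and lists were chosen with earlier results of these data known. Alternatives were another normalization, no filter, a replicate block, only the libraries compared, other thresholds, and each library left out in turn.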

Additional observations from a re-analysis of the deposited data

Results flagged for a closer look

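The age difference of 7 AP-1 genes differed between the 8 fractions by a joint interaction test (edgeR's quasi-likelihood test, adjusted over all genes tested). The adjusted p was 5.09e-10 for Jun, 3.02e-07 for Junb, 2.36e-11 for Fos, 1.09e-08 for Fosb, 1.59e-05 for Fosl2, 7.02e-05 for Atf3 and 0.000717 for Batf. The log2 age difference of Fosl2 was higher in HSCs than over the 4 MPP fractions by 1.61. In CLPs the log2 age difference lay below that of the MPP fractions, with contrasts of -1.13 for Junb, -2.29 for Fos, -2.86 for Fosb and -3.48 for Atf3. With 2 libraries per group, no single library could be tested as standing apart.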

How the results depend on the processing

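Of the 64 age comparisons, 27 passed as reported, 25 under size factors by relative log expression and 24 without the filter on low counts. With only the libraries compared 27 passed, 10 of them gained, while 9 calls were lost and Fosl2 in MEPs fell under the low count filter and was not tested. DESeq2 called 32, a threshold of 0.05 called 35 and an added log2 difference of 1 left 18. Leaving out 1 library at a time (a library left alone in its group is assumed to vary like the other groups) gave 23 (without Young MPP2 replicate 1) to 32 (without Aged CLP replicate 2) age calls, 131 to 146 of 224 pair calls in Young, 128 to 136 in Aged, and 7 joint calls each time. The replicate numbers did not pair the samples (duplicate differences in Young and Aged correlated at -0.06 to 0.07 over the 8 fractions), and with the replicate block 27 age comparisons, 137 Young pairs and 132 Aged pairs passed. Under the block Junb in MPP1 was lost (adjusted p = 0.0112, edgeR), Fosb in HSCs was gained (adjusted p = 0.0058), and Jund in CLPs went from -0.11 to 0.022. Without Jund, a choice made after seeing the data, the counts were 27, 129 and 128. Values that changed sign when 1 library was left out were never called as reported: they ranged over -0.070 to 0.69 for Atf3 in MPP3, 0.00 to 5.82 for Atf3 in GMPs (fitted values), -0.077 to 0.051 for Fos in MPP3, -0.023 to 0.21 for Junb in MEPs, -2.99 to 2.62 for Jund in MPP1 and -1.01 to 2.60 for Jund in CLPs. In the contrast of CLPs with MPPs they ranged over -0.16 to 0.21 for Batf, -0.31 to 0.14 for Fosl2 and -0.36 to 3.24 for Jund, and in that of HSCs with MPPs over -0.10 to 0.056 for Batf and -0.053 to 0.060 for Fos. Calls kept with any 1 library left out were those of Jun and Fos in GMPs and MEPs, Fos, Junb and Fosb in CLPs, Junb in MPP4, Fosb in GMPs, and Fosl2 in MPP2, MPP3 and MPP4. Under relative log expression Fosb in MPP4 (adjusted p = 0.0123) and Batf in MPP3 (adjusted p = 0.0118) were lost. At this depth the counts of Atf3 in GMPs and Fosl2 in MEPs were too few to read a size.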
